A study of Homo sapiens with 6 samples.

Results

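The 9 genes described here encode the UPF and SMG factors of nonsense-mediated decay, the pathway that removes messenger RNAs on which a ribosome terminates too early. They were chosen by name (UPF1, UPF2, UPF3A, UPF3B, SMG1, SMG5, SMG6, SMG8 and SMG9), and all 9 were found among the 62111 gene IDs of the deposited tables. RNA was sequenced from K562 cells, an erythroleukaemic human cell line, in 3 libraries with wild-type SF3B1 (WT) and 3 with SF3B1-K700E, a substitution in the branch point protein of the U2 snRNP. The labels name no treatment, time or drug for either group, and they do not say how the substitution was introduced, whether the mutant cells are 1 clone or a pool, or whether replicates came from separate cultures, so each p-value reflects library-to-library spread alone, which may be technical. The values were TPM (reads per base of gene length, scaled to sum to 1000000 in each library), which give levels per length for comparison between genes. That length is the summed exon length of the gene, and levels also shifted with GC content between libraries (below), which limits such comparison. WT and K700E values came in separate tables, and any difference in alignment between the tables cannot be told apart from genotype.

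In nonsense-mediated decay a ribosome that stops upstream of an exon junction complex, or far from the poly(A) tail, recruits the RNA helicase UPF1. UPF2 and the UPF3 proteins link UPF1 to the exon junction complex, the kinase SMG1 with its partners SMG8 and SMG9 phosphorylates UPF1, and SMG6 (an endonuclease) and SMG5 (an adaptor) bind phosphorylated UPF1 and start the breakdown of the RNA. The messages of several of these factors, UPF1, UPF2, UPF3B, SMG1, SMG5 and SMG6 among them, are known to be targets of the pathway themselves, a feedback that buffers its activity. Mutant SF3B1 selects cryptic 3′ splice sites, and many of the resulting transcripts carry premature stop codons. Levels per gene cannot separate such transcripts from the intact message, so splicing itself was not measured here.

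The members fell into sets by the base composition of their transcripts, a property that the choice of genes did not use. Over all transcripts of a gene in the GENCODE v29 annotation, the GC content was 59.6% for UPF1, 57.6% for SMG5, 57.5% for SMG9 and 55.9% for SMG6. It was 46.9% for UPF3A and 46.9% for SMG8, and 42.3% for SMG1, 42.1% for UPF3B and 41.5% for UPF2. Stretches of 120 coding bases show the contrast between the GC-rich UPF1, SMG5 and SMG9 and the AT-rich UPF2, UPF3B and SMG1. Each is the in-frame window of the coding region whose GC content is nearest to that of the whole region, in the principal transcript of GENCODE v29, printed 5′ to 3′ with G and C in capitals.
UPF1: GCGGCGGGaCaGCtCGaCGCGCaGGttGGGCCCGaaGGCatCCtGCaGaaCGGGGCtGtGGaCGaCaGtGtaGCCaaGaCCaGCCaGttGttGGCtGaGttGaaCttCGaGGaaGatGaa
SMG5: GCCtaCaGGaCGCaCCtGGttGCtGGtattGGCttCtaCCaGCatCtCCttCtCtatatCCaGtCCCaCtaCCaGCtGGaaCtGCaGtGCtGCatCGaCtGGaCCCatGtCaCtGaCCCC
SMG9: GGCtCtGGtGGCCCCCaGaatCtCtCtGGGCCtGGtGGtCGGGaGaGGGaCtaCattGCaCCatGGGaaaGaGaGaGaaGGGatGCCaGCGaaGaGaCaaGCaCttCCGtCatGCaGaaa
UPF2: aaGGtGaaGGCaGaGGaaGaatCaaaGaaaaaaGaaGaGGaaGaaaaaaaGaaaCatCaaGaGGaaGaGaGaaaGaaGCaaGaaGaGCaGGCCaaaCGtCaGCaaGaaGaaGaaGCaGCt
UPF3B: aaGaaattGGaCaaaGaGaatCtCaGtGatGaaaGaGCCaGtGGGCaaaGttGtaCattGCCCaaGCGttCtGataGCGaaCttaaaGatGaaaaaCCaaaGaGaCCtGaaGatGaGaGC
SMG1: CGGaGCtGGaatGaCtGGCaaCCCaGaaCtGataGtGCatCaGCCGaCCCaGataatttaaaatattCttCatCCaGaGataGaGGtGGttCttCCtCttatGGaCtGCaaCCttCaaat
These windows start at coding base 208 (UPF1), 328 (SMG5), 70 (SMG9), 235 (UPF2), 904 (UPF3B) and 67 (SMG1), counted from the first base of the start codon. The contrast was wider at the last position of codons, where G or C made up 80.4% in UPF1, 65.0% in SMG5 and 66.6% in SMG9, against 38.5% in UPF2, 40.1% in UPF3B and 40.9% in SMG1.

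Base composition upstream of the start sites was compared next. RefSeq promoters (build GRCh38.p14) were found for 8 of the 9 members, SMG8 being the other. The 250 bases upstream of UPF1 (chr19:18831709-18831958, plus strand) and of SMG1 (chr16:18926409-18926658, minus strand) each held 75.6% G and C, although the transcripts of these 2 genes stood near opposite ends of the range. They are shown because they carry this point, 5′ to 3′ on the gene's strand with matches to the GC box (GGGCGG on either strand) in capitals, where runs of capitals longer than 6 letters hold overlapping GC boxes.
UPF1: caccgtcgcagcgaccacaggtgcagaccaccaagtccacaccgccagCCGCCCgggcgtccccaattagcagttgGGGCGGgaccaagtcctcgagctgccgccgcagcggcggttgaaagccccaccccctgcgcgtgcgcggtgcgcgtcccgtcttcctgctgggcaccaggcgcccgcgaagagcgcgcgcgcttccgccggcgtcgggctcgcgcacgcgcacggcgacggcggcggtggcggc
SMG1: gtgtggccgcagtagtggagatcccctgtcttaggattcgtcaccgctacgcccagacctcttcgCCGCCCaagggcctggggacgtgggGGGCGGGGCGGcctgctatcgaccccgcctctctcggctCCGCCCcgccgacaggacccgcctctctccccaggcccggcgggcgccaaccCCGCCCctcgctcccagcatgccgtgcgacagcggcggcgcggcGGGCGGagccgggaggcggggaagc
The median GC content of all such windows was 58.0%. A GC box lay in the upstream windows of 7 of the 8 members and in 42.6% of 35116 promoter windows of the same length. CCAAT (either strand) was found for 4 members, SMG5, UPF1, UPF2 and UPF3B, against 32.0% of all windows, CACGTG for SMG6 and UPF2 (6.34%) and CCGGAAG for UPF3A alone (8.52%). TATAAA was in none of the 8, against 10.7% of all windows. Such matches are descriptions of letters. SMG5, SMG6, UPF2 and UPF3A had more than 1 window each, and a member was counted if any of its windows matched, so its chance of a match exceeds that of a single window.

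On GRCh37, the build of the deposited coordinates, the genes lie as follows, each with its identifier. The UPF genes are UPF1 (ENSG00000005007, chromosome 19, 18942768 to 18979039, plus strand), UPF2 (ENSG00000151461, chromosome 10, 11962021 to 12085169, minus strand), UPF3A (ENSG00000169062, chromosome 13, 115047076 to 115071292, plus strand) and UPF3B (ENSG00000125351, chromosome X, 118967985 to 118986961, minus strand). The kinase complex is encoded by SMG1 (ENSG00000157106, chromosome 16, 18816175 to 18937776, minus strand), SMG8 (ENSG00000167447, chromosome 17, 57286761 to 57292608, plus strand) and SMG9 (ENSG00000105771, chromosome 19, 44232135 to 44259114, minus strand). The factors that act on phosphorylated UPF1 are SMG5 (ENSG00000198952, chromosome 1, 156219015 to 156252616, minus strand) and SMG6 (ENSG00000070366, chromosome 17, 1963137 to 2207079, minus strand).

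Annotated features linked to decay differed widely among the members. The 3′ UTR of the principal transcript was 4716 bases in SMG1, 3604 in SMG9, 1719 in UPF1, 1649 in SMG6, 1363 in SMG5, 1276 in UPF2, 900 in UPF3A, 856 in UPF3B and 245 in SMG8. The 5′ UTR of UPF2 held 13 ATG triplets in 474 bases, while those of SMG1, SMG5 and SMG9 held 1 each and those of the other 5 members none. A transcript of the nonsense-mediated decay class was annotated for SMG1, SMG8 and SMG9, 1 each, and for none of the other members, and the annotation listed from 4 transcripts (UPF2) to 20 (SMG6) per gene.

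SMG1 and UPF3A share sequence with pseudogenes, so their reads could be divided or dropped in ways the files do not record. Of the 16041 stretches of 75 bases in the principal SMG1 transcript, 2185 (13.6%) also occurred in an annotated transcript of the pseudogenes SMG1P1 to SMG1P7 on chromosome 16. The length of 75 bases was set for this comparison, and the ambiguity of the actual reads was not measured. The first coding stretch found in all 7 pseudogenes starts at coding base 1297 and is shown as an example of sequence that these loci share.
SMG1: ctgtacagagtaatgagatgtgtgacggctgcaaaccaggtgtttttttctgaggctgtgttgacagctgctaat
Of the 7, SMG1P7 was the highest, at 7.89 ± 1.60 TPM in the WT libraries, against 6.87 ± 0.576 TPM in those with K700E (SD, n = 3 each), and the other 6 stood between 0.240 and 1.23 TPM in every library. For UPF3A 32.8% of its 2313 such stretches were shared with UPF3AP1, UPF3AP2 or UPF3AP3, which stood at 0.450 TPM or less throughout. SMG1 and UPF3A values are therefore uncertain to an extent that was not tested.

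All 9 members were expressed in every library, in the same order of mean level in WT and in K700E. SMG5 was the highest, followed by UPF1, UPF3A, UPF3B, UPF2, SMG8, SMG9, SMG1 and SMG6. In WT the library ranges of each gene and the next overlapped for the first 7, and only the steps from SMG9 to SMG1 and from SMG1 to SMG6 were clear of overlap. In K700E cells SMG5 also stood clear of UPF1, UPF1 of UPF3A, and SMG8 of SMG9. The kinase SMG1 and the endonuclease SMG6 were thus the least abundant messages per length in both groups. Between 2498 and 22266 read ends per library lay behind each value. The summed level of the 9 genes was 295, 332 and 324 TPM in the WT libraries, against 327, 351 and 325 TPM in those with K700E.

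**Figure D1:**
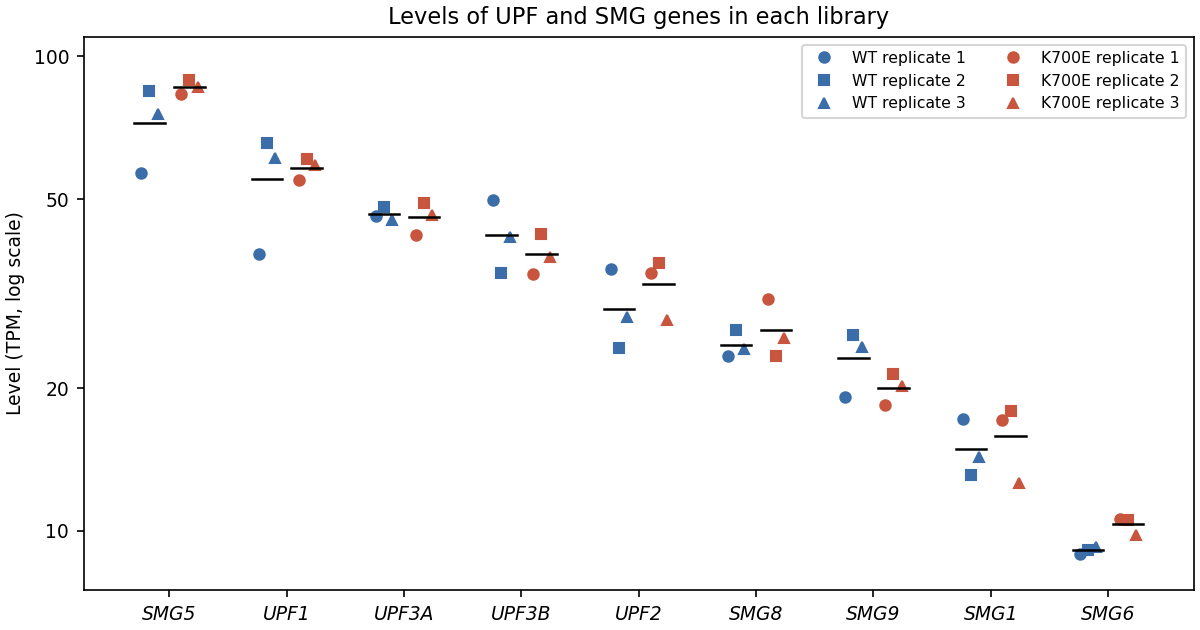
Level of each UPF and SMG gene in TPM (log axis) in the 3 WT libraries (blue) and the 3 K700E libraries (red), with symbols for the replicate number and a black bar at the group mean. Genes are ordered by WT mean, from SMG5 at 72.3 TPM to SMG6 at 9.10 TPM, and the groups are clear of each other only for SMG6.

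The comparison of K700E with WT asked whether the decay machinery itself was set to another level in the mutant cells. No member differed past the threshold, a limma adjusted p under 0.05 on log2(TPM + 1) over the 15493 genes averaging 1 TPM or more, all 9 members among them. Over all tested genes 1.38% passed it (1.15% higher and 0.232% lower in K700E), a share too low for 0 of 9 to set the members apart, and 0 of 9 had an unadjusted p under 0.05 against 16.5% of tested genes. Library values did not overlap for 1 of 9 members, SMG6, which was higher in K700E. Among all tested genes the values did not overlap for 24.0% (19.0% higher and 4.99% lower). The log2 difference was above 0 for 6 of 9 members and for 69.3% of tested genes. Its median was 0.09 over the members and 0.13 over all tested genes, and 3 members lay above the median gene and 6 below it. Median-ratio scaling of the libraries moved the median of all genes by -0.13, so differences are also given relative to the median gene. In these bulk samples less RNA per cell and fewer cells with the RNA cannot be told apart.

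UPF1, the ATP-dependent helicase on which the pathway turns, stood at 38.4, 65.7 and 61.1 TPM in WT replicates 1, 2 and 3 and at 54.9, 60.8 and 59.0 TPM in K700E replicates 1, 2 and 3, the order kept for the other genes. WT replicate 1 was low and the other 5 libraries lay close together, with the K700E libraries inside the WT range. The means were 55.05 ± 14.6 TPM in the WT libraries, against 58.2 ± 3.03 TPM in those with K700E (SD, n = 3 each), with a log2 difference of 0.12 (SE 0.21, limma adjusted p 0.825). Its 95% interval of -0.37 to 0.61 allows a change of up to about 1.52-fold upward, on the TPM + 1 scale, and does not show that the levels are alike. Relative to the median gene the difference was -0.01.

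UPF2, the scaffold that joins UPF1 to UPF3, stood at 35.6, 24.2 and 28.2 TPM in the WT libraries, against 35.0, 36.6 and 27.9 TPM in those with K700E. WT replicate 1 and K700E replicates 1 and 2 were high and the other 3 libraries low, a division that crossed the genotypes. The log2 difference was 0.18 (95% interval -0.26 to 0.61, limma adjusted p 0.686), from 29.4 ± 5.78 TPM in WT to 33.2 ± 4.65 TPM in K700E (SD, n = 3 each). The ratio of UPF2 to UPF1 was 0.928 in WT replicate 1 and 0.369 and 0.462 in WT replicates 2 and 3, against 0.638, 0.602 and 0.472 in K700E. The K700E ratios thus lay inside the WT range.

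UPF3A and UPF3B are paralogs that bind the exon junction complex, UPF3B being the stronger activator of decay and UPF3A the form that is stabilised when UPF3B is lacking. UPF3A was at 46.0, 48.1 and 45.2 TPM in the WT libraries, against 42.1, 49.2 and 46.3 TPM in those with K700E (log2 difference -0.02, or -0.15 relative to the median gene, 95% interval -0.31 to 0.27, limma adjusted p 0.956). UPF3B was at 49.8, 34.9 and 41.6 TPM in the WT libraries, against 34.8, 42.3 and 37.7 TPM in those with K700E, with a log2 difference of -0.12 (95% interval -0.51 to 0.27, limma adjusted p 0.759). For both paralogs the groups overlapped, and for UPF3A all 6 libraries lay between 42.1 and 49.2 TPM. The ratio of UPF3A to UPF3B was 1.13 ± 0.229 in WT and 1.201 ± 0.0346 in K700E (SD, n = 3 each). It ran from 0.924 to 1.38 in WT and from 1.16 to 1.23 in K700E, so the K700E ratios lay inside the WT range.

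The kinase SMG1 stood at 17.2, 13.1 and 14.3 TPM in the WT libraries, against 17.1, 17.9 and 12.6 TPM in those with K700E (log2 difference 0.08, 95% interval -0.35 to 0.51, limma adjusted p 0.865). As with UPF2, WT replicate 1 and K700E replicates 1 and 2 were the high libraries. SMG8, which restrains the kinase, was at 23.4, 26.5 and 24.2 TPM in the WT libraries, against 30.7, 23.4 and 25.5 TPM in those with K700E, with K700E replicate 1 above the rest (log2 difference 0.09, limma adjusted p 0.805). SMG9, a GTPase-like protein that holds SMG8 in the complex, was at 19.2, 25.8 and 24.4 TPM in the WT libraries, against 18.4, 21.4 and 20.2 TPM in those with K700E. Its log2 difference of -0.19 (95% interval -0.57 to 0.18, limma adjusted p 0.598) was the most negative of the 9, at -0.32 relative to the median gene. WT replicate 1 lay among the K700E libraries, below WT replicates 2 and 3. The ratio of SMG8 to SMG1 was 1.69 ± 0.329 in WT and 1.71 ± 0.361 in K700E, and that of SMG9 to SMG1 was 1.60 ± 0.436 and 1.29 ± 0.275 (SD, n = 3 each), each with overlapping groups.

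SMG5, the adaptor that brings phosphorylated UPF1 to dephosphorylation and decay, had the largest difference of the 9 before scaling, but relative to the median gene it was at 0.14, less far from 0 than SMG9 (-0.32) and UPF3B (-0.25). It stood at 56.8, 84.5 and 75.6 TPM in the WT libraries, against 83.2, 89.4 and 86.1 TPM in those with K700E, so WT replicate 2 lay above K700E replicate 1 and the groups overlapped. The means were 72.3 ± 14.1 and 86.2 ± 3.10 TPM (SD, n = 3 each), with a log2 difference of 0.27 (SE 0.17, 95% interval -0.12 to 0.66, limma adjusted p 0.475). Without WT replicate 1, its lowest library, the log2 difference was 0.11. SMG6, the endonuclease that cuts near the stop codon, was at 8.92, 9.13 and 9.23 TPM in the WT libraries, against 10.6, 10.5 and 9.81 TPM in those with K700E. All 3 K700E libraries lay above all 3 WT libraries, which an exact two-sided permutation test puts at p = 0.1, the smallest it can give for 3 against 3. The log2 difference of SMG6 was 0.16 (SE 0.13, 95% interval -0.15 to 0.48, limma adjusted p 0.591), or 0.04 relative to the median gene, and with median-ratio scaling it was 0.03. The ratio of SMG5 to SMG6 ran from 6.37 to 9.26 in WT and from 7.83 to 8.77 in K700E.

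**Figure D2:**
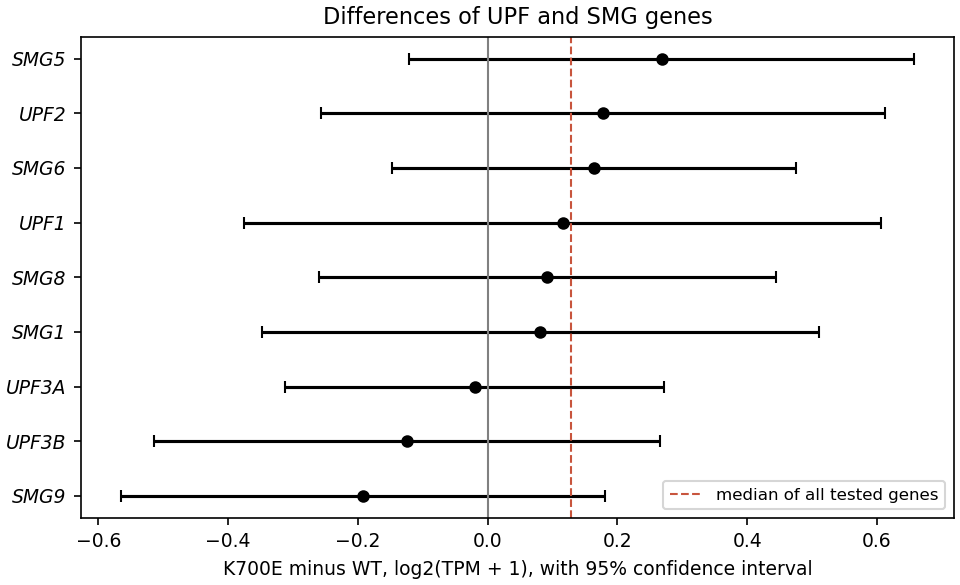
Difference of each UPF and SMG gene between K700E and WT on log2(TPM + 1), with its 95% confidence interval from limma (n = 3 libraries per group). Every interval crosses 0, from SMG9 at -0.19 to SMG5 at 0.27, and the dashed line marks the median of all tested genes at 0.13.

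The spread of the members within WT followed their GC content. WT replicate 1 was higher than the mean of WT replicates 2 and 3 for the AT-rich UPF2, UPF3B and SMG1, by 0.43, 0.38 and 0.31 on the log2(TPM + 1) scale. It was lower for the GC-rich genes, with a difference of -0.71 for UPF1, -0.49 for SMG5 and -0.37 for SMG9. UPF3A and SMG8, of middling composition, stood at -0.02 and -0.11, and SMG6 at -0.04 in spite of its 55.9% GC. Over the 9 genes Pearson's r was -0.92 and Spearman's rho -0.95, as a description of points that share the same 3 libraries. The relation was not particular to these genes: over 15129 tested genes with a GC value r was -0.74. The median of tested genes went from 0.33 at 40 to 45% GC (3446 genes) to -0.36 at 55 to 60% (2410 genes). WT replicate 3 lay between WT replicates 1 and 2 for 7 of the 9 members and for 75.9% of tested genes. Whether the 3 WT libraries are independent of each other was not tested, and if they are not, the SE and p values here rest on fewer than 3 WT samples.

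**Figure D3:**
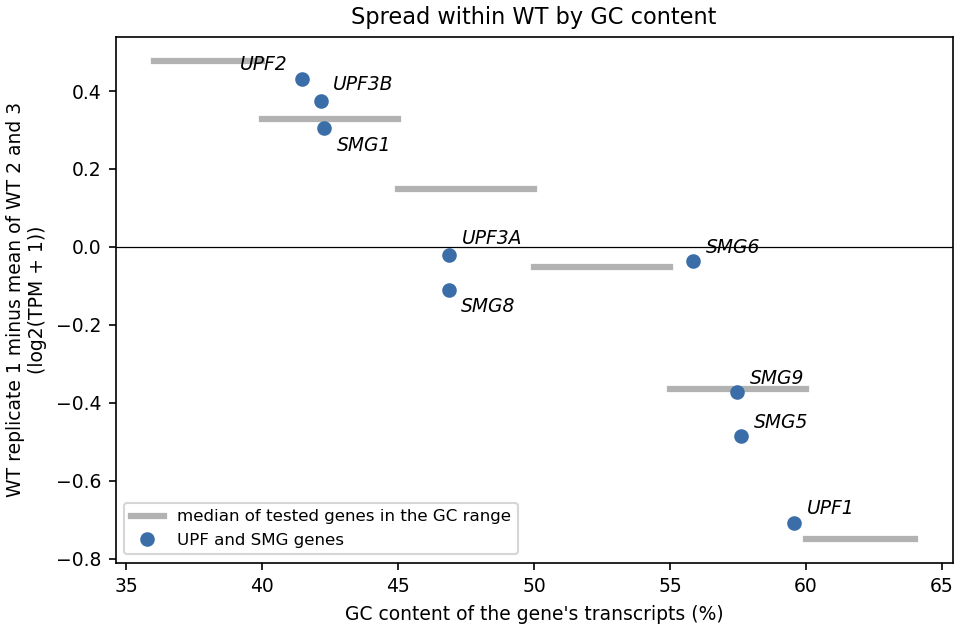
GC content of each gene's transcripts in percent (horizontal) against WT replicate 1 minus the mean of WT replicates 2 and 3 on log2(TPM + 1) (vertical), with the 9 UPF and SMG genes as points and the median of all tested genes in each GC range as grey bars (the outer ranges, under 40% and from 60%, drawn in part). UPF2, UPF3B and SMG1 lie above 0 and the other genes below it. At 55 to 60% GC, where the grey bar is at -0.36, UPF1 lies below the bar at -0.71 and SMG6 above the bar at -0.04.

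When each library was corrected for GC content across all tested genes, the spread within WT narrowed for these 6 members and widened for the other 3. The SD of log2(TPM + 1) over the WT libraries went from 0.41 to 0.10 for UPF1, from 0.29 to 0.067 for SMG5 and from 0.22 to 0.0061 for SMG9. For UPF2 it went from 0.27 to 0.040, for UPF3B from 0.25 to 0.035 and for SMG1 from 0.19 to 0.038. It went from 0.046 to 0.14 for UPF3A, from 0.023 to 0.14 for SMG6 and from 0.090 to 0.20 for SMG8. In K700E the same correction widened the SD for 6 of the 9 members and narrowed it for UPF2, SMG1 and SMG8. It went there from 0.074 to 0.12 for UPF1, from 0.051 to 0.0998 for SMG5, from 0.10 to 0.13 for SMG9 and from 0.14 to 0.21 for UPF3B, so the narrowing of these 4 genes was seen in WT and not in K700E. Over all tested genes the K700E libraries also varied with GC content. Relative to each gene's mean over the 6 libraries, the median for K700E replicate 1 was 0.20 under 40% GC and -0.08 from 60%. For K700E replicate 2 it was 0.096 and -0.036, for K700E replicate 3 -0.08 and 0.24, and for WT replicate 1 0.25 and -0.55. The median of the WT SD over all tested genes was 0.23 before and 0.14 after the correction. With the correction 0 of the 9 members passed in the limma test, and SMG9 came nearest, with a log2 difference of -0.32 and a limma adjusted p of 0.109. The corrected differences of UPF1, SMG1, SMG6, SMG8 and UPF2 lay between -0.05 and 0.05, while those of SMG5, UPF3A and UPF3B were 0.14, -0.15 and -0.25. The correction also centres each library, so these values are relative to all genes.

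The genes whose profile over the 6 libraries was nearest to that of SMG5, the member with the smallest unadjusted p, were SEC16A, MED29 and PTPA. After each gene's own mean was subtracted, their log2(TPM + 1) values differed from those of SMG5 by a root mean square of 0.031, 0.032 and 0.036. All 3 are also rich in GC, at 56.0, 56.0 and 58.9%, and were lowest in WT replicate 1.

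Genes that act with the UPF and SMG factors were examined by lists of known partners. Of 9 exon junction complex genes, which mark spliced messages for UPF3, 0 passed in either direction, and their median log2 difference was 0.10 against 0.13 for all genes. EIF4A3, the helicase core of that complex, stood at 82.2 ± 3.12 TPM in the WT libraries, against 104 ± 15.6 TPM in those with K700E (SD, n = 3 each; limma adjusted p 0.302), MAGOH at 194 ± 12.6 and 228 ± 28.3 TPM (0.459) and RNPS1 at 80.4 ± 12.1 and 92.6 ± 0.164 TPM (0.514). Among 8 other cofactors, also with 0 past the threshold, NBAS, which takes part in decay at the endoplasmic reticulum, stood at 132, 109 and 117 TPM in the WT libraries, against 74.2, 87.4 and 89.9 TPM in those with K700E. The groups did not overlap for NBAS, yet its limma adjusted p was 0.137, and with GC correction it passed, lower in K700E, at 0.0434 (log2 difference -0.63). That call was lost without WT replicate 1 (limma adjusted p 0.0866) or WT replicate 3 (0.192), with log2 differences of -0.63 and -0.64. RUVBL1, an ATPase that helps assemble kinase complexes of the SMG1 family, was at 68.0 ± 1.77 and 80.4 ± 9.40 TPM, and the helicase DHX34 at 12.4 ± 3.12 and 15.3 ± 0.971 TPM.

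The machinery of termination and of RNA breakdown downstream of UPF1 showed 0 calls as well. In the limma test 0 of 9 termination genes, 0 of 17 decapping and 5′ to 3′ decay genes, 0 of 16 deadenylation genes and 0 of 18 exosome and SKI genes passed, with 1, 0, 3 and 1 at an unadjusted p under 0.05, against 1.38% called and 16.5% at that p over all tested genes. Their median log2 differences were 0.15, 0.07, 0.17 and 0.10. PABPC4, a poly(A)-binding protein, was at 163 ± 3.69 and 198 ± 18.1 TPM (limma adjusted p 0.296). Its partners PAIP1 and PAIP2 went in opposite directions, at log2 differences of -0.28 and 0.29 (limma adjusted p 0.443 and 0.462). XRN2, a 5′ to 3′ exonuclease of the nucleus, was at 89.1 ± 10.6 and 108 ± 11.5 TPM (0.394), DCP1B at 5.02 ± 0.498 and 6.17 ± 0.642 TPM (0.469) and LSM6 at 13.6 ± 1.68 and 16.1 ± 1.62 TPM (0.512). EXOSC2, a cap subunit of the exosome, was at 58.7 ± 5.09 and 76.8 ± 0.873 TPM (0.187), with EXOSC3 at 29.5 ± 4.55 and 36.9 ± 2.72 TPM and EXOSC1 at 78.6 ± 7.26 and 65.5 ± 2.42 TPM. The deadenylation partners TOB2 and TOB1 lay on opposite sides, at log2 differences of 0.39 and -0.39 (limma adjusted p 0.233 and 0.272), and CNOT9 was at 0.42 (0.239).

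SMG1 belongs to the family of large kinases that includes ATM, ATR, MTOR and DNA-PK, whose members need the TTT complex (TELO2, TTI1 and TTI2) to fold. Of 11 genes of this family, of the TTT complex and of its chaperone partners (PIH1D1 and RPAP3), SMG1 included, 1 fell and 0 rose in the limma test. Over all tested genes 0.232% were called lower and 1.15% higher in K700E. TTI1 stood at 54.0, 42.7 and 49.3 TPM in the WT libraries, against 24.6, 22.8 and 26.9 TPM in those with K700E, with no overlap (log2 difference -0.94, limma adjusted p 0.0304). Leaving out 1 library, its limma adjusted p ran from 0.0425 to 0.188 and was over 0.05 without WT replicate 3 or any 1 of the K700E replicates, while the log2 difference stayed between -1.03 and -0.86. The lower TTI1 level was known from earlier results on these same libraries, so its direction is not independent evidence. The kinases did not pass: ATR was at 11.1 ± 1.42 and 15.2 ± 2.60 TPM (SD, n = 3 each; limma adjusted p 0.296), the chaperone partner PIH1D1 at 148 ± 26.6 and 190 ± 18.6 TPM (0.328), and SMG1 as given above.

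Transcripts that are reported to build up when nonsense-mediated decay is slowed were examined as well. Of 8 coding genes 0 passed, with a median log2 difference of -0.02, and 0 of 8 had an unadjusted p under 0.05 in the limma test. TBL2 was at 27.7 ± 0.244 and 33.0 ± 3.39 TPM, the stress transcription factor ATF4 at 662 ± 59.3 and 572 ± 28.2 TPM and GADD45B at 8.17 ± 4.73 and 4.84 ± 0.447 TPM (SD, n = 3 each). Of 8 non-coding genes, mostly hosts of small nucleolar RNAs, 0 passed in the limma test, 3 had an unadjusted p under 0.05 (16.5% of all tested genes), all lower in K700E, and the median log2 difference was -0.29, or -0.42 relative to the median gene. For 6 of these 8 the library values did not overlap between the genotypes, lower in K700E for 4 and higher for 2, against 4.99% and 19.0% of all tested genes.

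Among these non-coding genes EPB41L4A-AS1 stood at 39.7, 45.4 and 40.2 TPM in the WT libraries, against 22.0, 32.3 and 29.1 TPM in those with K700E (limma adjusted p 0.157). ZFAS1 was at 87.5, 85.9 and 84.9 TPM in the WT libraries, against 70.5, 67.7 and 63.4 TPM in those with K700E (limma adjusted p 0.194, and 0.0259 with GC correction, where it was called lower). That call was lost without WT replicate 1 (limma adjusted p 0.0640) or WT replicate 3 (0.138), with log2 differences of -0.46 and -0.52. GAS5 stood at 872 ± 126 and 660 ± 71.1 TPM (SD, n = 3 each; limma adjusted p 0.237). These 3 host genes were thus lower in each K700E library than in each WT library. EPB41L4A-AS1 and ZFAS1 lie antisense to coding genes, and reads of the opposite strand cannot be told apart from theirs unless the counting used strand. SNHG8 and SNHG12, also host genes, had values that did not overlap in the other direction, with limma adjusted p of 0.418 and 0.360.

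**Figure D4:**
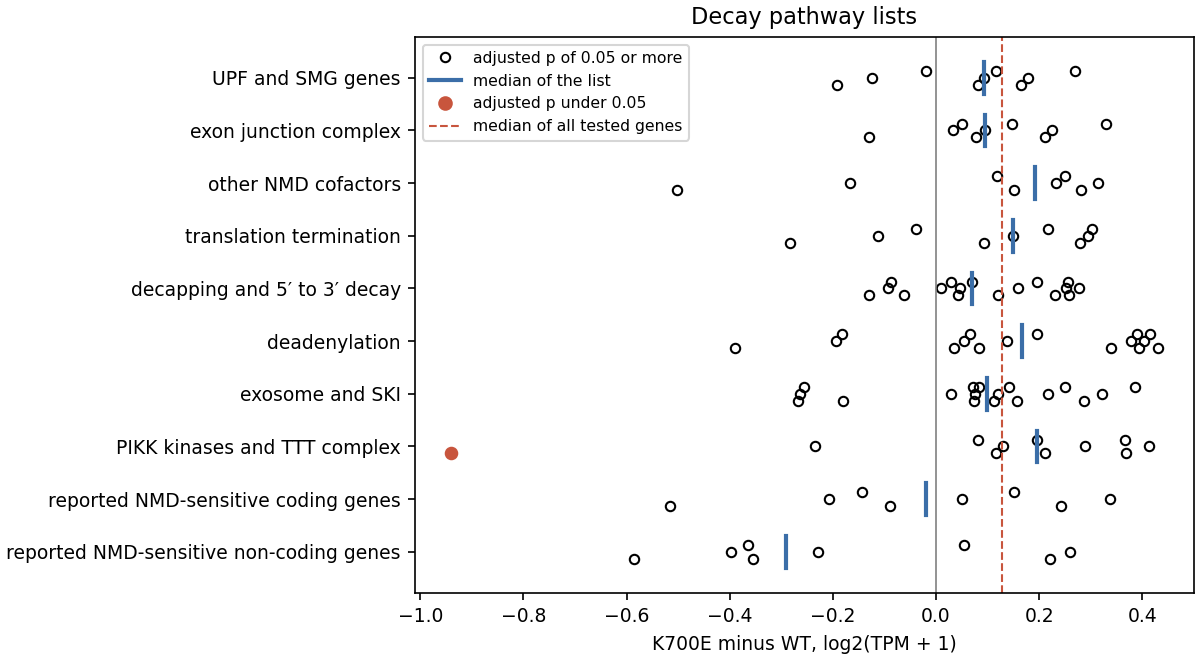
Difference between K700E and WT on log2(TPM + 1) for every tested gene of 10 lists (1 circle per gene), with the list median as a blue bar, the median of all tested genes (0.13) as a dashed line and a filled red circle for an adjusted p under 0.05. The only filled circle is TTI1 at -0.94, and the non-coding list has the lowest median, at -0.29.

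As a check of the labelled cells, all 10 erythroid and megakaryocytic markers of K562 cells were expressed in every library, with summed levels of 2651 to 4525 TPM in the WT libraries, against 3665 to 4995 TPM in those with K700E, and 0 of them differed past the threshold in the limma test. Before adjustment 2 of the 10 had a limma p under 0.05, both higher in K700E, against 16.5% of all tested genes. The largest log2 difference among the 10 was 1.04, and their lowest limma adjusted p was 0.122. Of 11 markers of lymphoid, myeloid, stromal, endothelial and liver cells found in the tables, 7 were under 1 TPM in all 6 libraries, CD4 and CD14 among them. MS4A1, CD8A and CDH5 were listed at 0 in each WT library, while none of the 11 was at 0 in all 6 libraries. Of these markers 3 were tested. For 1 of them the library values did not overlap, higher in K700E (log2 difference 0.77, limma adjusted p 0.145). LYZ was present at 116 ± 8.01 TPM in the WT libraries, against 112 ± 56.3 TPM in those with K700E (SD, n = 3 each), and the summed level of the 11 was 117 to 132 TPM in the WT libraries, against 74.1 to 183 TPM in those with K700E. The part of these markers in the results was not tested. Recovered read ends came to 104642332 to 136588117 per library. K700E itself, a change of a codon, cannot be seen in values per gene.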

How the data were processed

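RNA was measured in 6 libraries of K562 cells, grouped by the genotype in their labels. The authors deposited gene-level TPM, with WT and K700E libraries in different tables. The WT columns carry names typical of STAR alignments and come with featureCounts exon and length fields, per the file headers. Among the tools in the submitters' processing notes are cutadapt 2.10, featureCounts 2.0.1, TopHat2 2.1 and DESeq2, with build GRCh37 (hg19). Which aligner made each table, and whether counting used strand, is not given in the sources used here.

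Gene IDs were joined to symbols by ID (94.4% matched). Multiplying TPM by gene length yielded integer multiples of 1 step per library for 100% of nonzero genes (tolerance 0.01), and these multiples are the read ends, 104642332 to 136588117 per library. Genes with 2 read ends outnumbered those with 1 in every library. The 15493 genes averaging 1 TPM or more were tested in limma 3.58.1 (R 4.3.3) on log2(TPM + 1), two-sided, with genotype as the only term, a trend on mean level and Benjamini-Hochberg adjustment over all tested genes. The procedure was tested on simulated data with noise drawn independently for each gene, so without the spread by GC content that genes share here. The added 1 TPM shrinks fold changes of low genes. GC content came from GENCODE v29 transcripts, a build later than that of the files, joined by ID for 97.7% of tested genes. The loess correction had a span of 0.5.

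The members, the gene lists and the tests were chosen with earlier results of these data known. Named genes were all members, each called gene of a list and up to 3 more by smallest p, the named pseudogenes, and the 3 genes nearest in profile to the member with the smallest p. The non-coding genes SNHG8 and SNHG12 were named in addition, after their values were seen, as were single markers. The alternatives tried were a pseudocount of 0.1 or 5, a filter of 5 TPM or none, median-ratio and upper-quartile scaling, no trend, the replicate number as a block, limma-voom on the recovered reads, GC correction and leaving out each library. GC correction without WT replicate 1 or 3 was added after the data were seen. Other software was matplotlib 3.10.9, scipy 1.17.1, numpy 2.4.6, pandas 2.3.3 and Python 3.11.15.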

Additional observations from a re-analysis of the deposited data

How the results depend on the processing

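No UPF or SMG gene passed under any of the 18 alternatives in limma or limma-voom (count 0 in each), and the lowest adjusted p of any member was 0.109, for SMG9 with GC correction. Measured against 0, UPF2, SMG5 and SMG6 stayed higher and SMG9 lower in all 18, but their sizes moved. They ran from 0.037 to 0.32 for UPF2, 0.11 to 0.39 for SMG5, 0.0039 to 0.20 for SMG6 and -0.33 to -0.11 for SMG9. Relative to the median gene of the same setting, SMG5 and UPF2 did not stay higher. SMG5 was at 0.11 without WT replicate 1, where the median gene was at 0.14. UPF2 was at 0.053 without WT replicate 2 (median gene 0.11) and at 0.10 without K700E replicate 2 (median gene 0.14). The direction against 0 turned for the other 5 members. With median-ratio scaling the log2 difference was -0.026 for UPF1, -0.054 for SMG1 and -0.047 for SMG8, and with upper-quartile scaling -0.0089, -0.037 and -0.030. GC correction gave -0.046 for SMG1 and -0.037 for SMG8. It gave -0.062 and -0.053 for these genes when WT replicate 3 was also left out, and -0.059 and -0.13, with -0.056 for UPF1, when WT replicate 1 was. Leaving out 1 library at a time, UPF1 ran from -0.12 (no WT replicate 1) to 0.26, UPF3A from -0.070 to 0.039 (no K700E replicate 1; 0.0058 without WT replicate 2), UPF3B from -0.25 to 0.00018 (no WT replicate 1), SMG1 from -0.0059 (no K700E replicate 2) to 0.23 and SMG8 from -0.015 (no K700E replicate 1) to 0.18. The causes were not tested.

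Over all genes limma called 214 (178 higher and 36 lower in K700E). The count was 0 with no filter on low values (4891 at an unadjusted p under 0.05), 92 with a minimum of 5 TPM, 67 with the replicate number as a block and 521 (303 higher, 218 lower) with GC correction. Leaving out 1 library gave 0 to 170, with 0 without WT replicate 3 (1492 unadjusted), also after GC correction (2035 unadjusted), 126 without WT replicate 2, and 93, 86 and 137 without K700E replicates 1, 2 and 3. GC correction without WT replicate 1 called 195. The labels give both groups replicate numbers 1 to 3, but the deviations of same-numbered libraries correlated at 0.28, -0.19 and 0.30, not over 0.1 in every pair, and WT replicate 2 went most closely with K700E replicate 3, so the numbers are not taken as pairs. With the block 0 members passed, and TTI1 did not (limma adjusted p 0.0695). TTI1 also did not pass with no filter (0.0705) or with GC correction and no WT replicate 3 (0.0805). With 3 libraries a group, the absence of a call does not exclude changes inside a member's interval. Larger differences could also miss the threshold: NBAS, at a log2 difference of -0.50 with no overlap, did not pass (limma adjusted p 0.137).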
